A study of Mus musculus with 191 samples.

Results

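Immediate early genes are switched on within minutes of a growth factor, stress or injury signal, without new protein synthesis, and their transcripts decay quickly. Kinase cascades of the MAP kinase family reach them through factors already bound at their promoters, such as SRF with its ETS-family partners and CREB. Several products are transcription factors that pass the signal on, and others, such as the phosphatase Dusp1, shut the signal off. In lung these genes are known to respond to cyclic stretch, oxidants, inhaled irritants and the handling of tissue.

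The 10 genes described are Fos, Fosb, Jun and Junb, which encode subunits of the AP-1 transcription factor, the zinc finger factor Egr1, the stress-induced factor Atf3 of the CREB/ATF family, the orphan nuclear receptor Nr4a1, the phosphatase Dusp1, which inactivates MAP kinases, the nuclear protein Ier2 and Ier3, a regulator of cell survival. They were chosen by symbol, as the genes of 11 probe sets that the array's annotation assigns to 1 of these symbols and to no other gene, out of 18194 genes on the array. Jun has 2 probe sets, and the one with the higher mean stands for it. All 10 were among the 13524 genes tested, for which at least 3 arrays had to lie above the median of all values. 9 members lay above that median on all arrays, while Fosb did so on 5 arrays, so its values lie near the low end of the array's range.

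Lung RNA of female mice of the hybrid strain B6C3F1, common in long-term toxicity studies, was measured on Affymetrix mouse arrays after 13 weeks of exposure, at an age of 18 weeks in every group. All animals were killed with pentobarbital and exsanguination. There were 133 arrays of 34 exposed groups and 58 arrays of 14 control sets, each group with 3 to 5 arrays of different animals, and the labels code 4 array batches. The number of arrays limits the precision. Groups are called by the labels' codes.

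By inhalation, mice received naphthalene (NPTH) at 0.5, 3, 10, 20 or 30 ppm, methylene chloride (MECL) at 100, 500, 2000, 3000 or 4000 ppm, ethylene oxide (ETOX) at 100 ppm, propylene glycol mono-t-butyl ether (PGBE) at 1200 ppm or vanadium pentoxide (VANP) at 2 mg/m3, and these groups share the air control sets ACO3, ACO4 and ACO5. Tetrafluoroethylene (TFEL) at 1250 ppm and the group labelled tetrafluororethane (TFEA) at 50000 ppm share the air set ACO1 of another batch. By corn oil gavage, mice received benzene (BENZ) at 100 mg/kg, coumarin (COUM) at 200 mg/kg or 1,2-dibromoethane (DBET) at 62 mg/kg, which share the corn oil sets CCO2 and CCO3. 1,4-Dichlorobenzene (DCBZ) at 600 mg/kg and 1,2,3-trichloropropane (TCPN) at 60 mg/kg share CCO5 and CCO6, iodoform (IODO) at 93 mg/kg and trichlorofluoromethane (TCFM) at 3925 mg/kg share CCO4, and 2,3-benzofuran (BFUR) at 240 mg/kg has the set CornOil. By gavage in distilled water, 2-chloromethylpyridine hydrochloride (CMPH) at 250 mg/kg and N-methylolacrylamide (MACR) at 50 mg/kg share the water set WCO1. In rodent chow, 2,2-bis(bromomethyl)-1,3-propanediol (BBMP) at 1250 ppm, diazinon (DIAZ) at 200 ppm, 4-nitroanthranilic acid (NAAC) at 10000 ppm and malathion (MALA) share the set FCO2, and malathion has 14800 ppm in its treatment label but 16000 ppm in its title. 1-Amino-2,4-dibromoanthraquinone (ABDQ) at 20000 ppm and tris(2,3-dibromopropyl)phosphate (TDPP) at 1000 ppm share the chow set FCO1, and 1,5-naphthalenediamine (NAPD) at 2000 ppm, N-(1-naphthyl)ethylenediamine dihydrochloride (NEDD) at 2000 ppm and pentachloronitrobenzene (PCNB) at 8187 ppm share the set RodentChow.

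Values are on a log scale whose base the labels do not state and which is taken as base 2. Each difference is an exposed group minus the mean of its control sets, each set weighted equally, ± SE. A member was called, and is said to have risen or fallen, where limma's Benjamini-Hochberg adjusted p over all genes tested was under 0.05 against each of those sets, with 1 sign, and the adjusted p given is the largest over them. In whole lung, fewer cells of a type and less RNA per cell cannot be told apart. Means of the club cell list (Scgb1a1, Scgb3a2 and Cyp2f2) lay between 5.80 and 6.94 and those of the tested alveolar type 2 genes between 5.56 and 6.60 over all arrays, against a median of -0.386 over all values. The SD of all values of an array ran from 1.01 to 1.44, and 2 of the 159 arrays with an RNA integrity number were under 7.

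The 250 bases before the annotated start are shown for Fos, Atf3, Nr4a1 and Dusp1, whose values rose and fell together between arrays of a group, as given further on. Other members did so as closely, such as Jun with Dusp1 at r = 0.69, against 0.54 for Fos with Dusp1. Each promoter shown holds a motif named below, while those of Jun, Junb and Ier3, not shown, hold none of them. Promoters were read from RefSeq's table of build GRCm38.p6, which held 8 of the 10 members and lacked Egr1 and Ier2. Capitals mark matches, on either strand, of the CRE half-site TGACGT, of the TATA box letters TATAAA and of the EGR motif GCGGGGGCG, and the full CRE TGACGTCA contains the half-site on both strands. The Fos promoter lies at chr12:85473640-85473889, plus strand, that of Atf3 at chr1:191183334-191183583, minus strand, that of Nr4a1 at chr15:101266596-101266845, plus strand and that of Dusp1 at chr17:26508473-26508722, minus strand.
Fos: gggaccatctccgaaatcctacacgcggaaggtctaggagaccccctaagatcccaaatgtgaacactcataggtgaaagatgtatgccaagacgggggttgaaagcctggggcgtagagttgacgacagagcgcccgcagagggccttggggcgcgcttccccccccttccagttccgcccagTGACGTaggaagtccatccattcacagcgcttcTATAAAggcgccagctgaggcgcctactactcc
Atf3: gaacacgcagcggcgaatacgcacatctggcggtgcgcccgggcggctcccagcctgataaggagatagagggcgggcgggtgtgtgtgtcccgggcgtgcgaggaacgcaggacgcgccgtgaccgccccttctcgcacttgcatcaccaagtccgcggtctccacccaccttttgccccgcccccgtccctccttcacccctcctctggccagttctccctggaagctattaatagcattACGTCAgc
Nr4a1: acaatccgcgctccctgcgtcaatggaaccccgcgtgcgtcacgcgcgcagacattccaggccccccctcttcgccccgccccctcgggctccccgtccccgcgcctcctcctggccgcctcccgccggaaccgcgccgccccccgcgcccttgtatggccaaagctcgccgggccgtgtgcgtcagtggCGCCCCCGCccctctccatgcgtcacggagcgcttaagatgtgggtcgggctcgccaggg
Dusp1: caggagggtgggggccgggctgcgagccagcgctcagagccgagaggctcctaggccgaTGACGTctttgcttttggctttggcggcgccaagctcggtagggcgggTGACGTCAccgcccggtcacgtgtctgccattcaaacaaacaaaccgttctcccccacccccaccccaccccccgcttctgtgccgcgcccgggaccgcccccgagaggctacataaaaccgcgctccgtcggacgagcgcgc
The half-site began 66 bases before the start in Fos, with the TATA letters 33 bases before it, and 8 bases before the start in Atf3. In Dusp1 the full CRE began 143 bases before the start, with a further half-site upstream of it. The EGR motif began 60 bases before the start of Nr4a1 and 50 bases before that of Fosb. The CRE half-site stood in 3 of the 8 members' promoters, against 6.47% of 32851 promoters of the same length, the full CRE in 1 (1.55% of all), the TATA letters in 1 (12.4%) and the EGR motif in 2 (2.57%). The AP-1 motif TGANTCA stood in 0 of the 8 (6.75%), as did the CArG box that SRF binds (1.47%). These counts describe letters in the sequence and no binding was measured.

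The main feature of the members was their spread between animals of the same group. Nr4a1 had a pooled SD within groups of 0.431, larger than that of 99.3% of the genes tested, whose median was 0.147. Fos (0.361), Ier3 (0.349), Dusp1 (0.337) and Egr1 (0.332) lay at percentiles between 97.7 and 98.5, so that 5 of the 10 members stood among the 5% of genes with the largest spread. Jun (0.271) was at percentile 94.6, Atf3 (0.228) at 87.9, Ier2 (0.224) at 86.5 and Junb (0.205) at 80.3. Fosb, the member near the low end of the array, was at 37.4 with an SD of 0.124. Among genes of like mean level Nr4a1 was at percentile 99, Ier3 at 97, Fos and Egr1 at 96.8, Dusp1 at 96.6, Atf3 at 93.8, Jun at 89.5, Junb at 80.8, Fosb at 78.1 and Ier2 at 72.1. The spread was not that of the exposed animals alone: it was 0.423 in exposed groups and 0.450 in control sets for Nr4a1, 0.382 and 0.309 for Fos, 0.319 and 0.374 for Dusp1, and 0.236 and 0.337 for Jun.

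**Figure D1:**
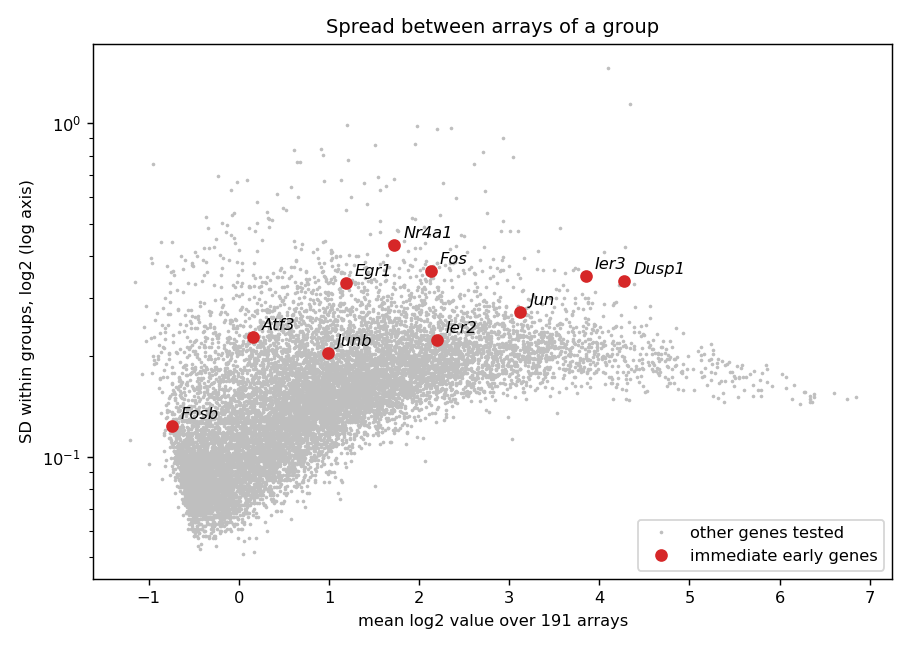
Each point is a gene tested, with its mean log2 value over all arrays on the x axis and its pooled SD within the 48 groups on a log y axis, and the members in red. Nr4a1 stands highest of the members at 0.431 and Fosb lowest at 0.124, against a median of 0.147 over all genes tested.

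Single arrays stood far from the others of their group in several members at once. In the group exposed to naphthalene at 3 ppm, Nr4a1 was at 3.04 on replicate 2 and at 1.48, 1.23 and 1.25 on the other arrays. Egr1 was at 2.45 on the same array and at 0.93, 1.28 and 1.04 on the others. Fos was at 3.10 there and between 2.06 and 2.11 elsewhere in the group, and all 10 members of that array lay above their group means. Among TDPP animals replicate 3 stood out in the same way, with Nr4a1 at 2.49, against 1.12, 1.21 and 1.42, and Atf3 at 0.80, against 0.12, 0.18 and 0.06. Unexposed animals did so too: in the corn oil set CCO4, replicate 4 had Nr4a1 at 3.11, against 1.30, 1.68 and 1.54, and Dusp1 at 5.21, against 4.03, 4.38 and 3.74. Of the 133 exposed and 58 control arrays together, 38 had 9 or 10 members above their group means and 35 had 0 or 1. The same counts for other sets of genes are not given.

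Deviations from the group means were correlated between members over all arrays, with two-sided p from 100000 permutations of arrays within groups, adjusted over the 45 pairs. The smallest p they can give is 1e-05. Of the 45 pairs 38 correlated positively at an adjusted p under 0.05, none negatively, with a median Pearson's r of 0.44. No share over pairs of all genes tested is given beside this count, so it does not set the members apart from other genes. Arrays of a group share a batch and a processing, and the array-wide measures that moved with the members follow below.

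Fos and Egr1, a pair of transcription factor genes, moved most closely, at r = 0.82 (Spearman's rho = 0.83, permutation p = 1e-05 and adjusted p = 1.55e-05 for both measures), between 0.81 and 0.86 in the 4 batches. Atf3 and Nr4a1 reached r = 0.82 (rho = 0.79, adjusted permutation p = 1.55e-05), with 0.58 to 0.85 in the batches. Junb and Ier2 followed at r = 0.79 (rho = 0.80, adjusted permutation p = 1.55e-05), with 0.68 to 0.84. Nr4a1 with Dusp1 (r = 0.74, rho = 0.71), Jun with Ier2 (0.73 and 0.73), Fos with Nr4a1 (0.72 and 0.71) and Ier2 with Dusp1 (0.72 and 0.69) came next, each at an adjusted permutation p of 1.55e-05. Within the batches Jun with Ier2 ranged from -0.05 to 0.85 and Fos with Nr4a1 from 0.15 to 0.82. In the smallest batch, of 18 arrays, none of the 45 pairs passed the adjusted permutation p, although Fos with Egr1 was at 0.84 there (p = 0.0209). Leaving out the 2 arrays farthest from the median of the first gene of a pair moved none of these 7 values by more than 0.02.

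Ier3 stood apart from the others. Its r with the other members ran from -0.08 to 0.38, and 3 of its 9 pairs passed, with Egr1 (r = 0.38, rho = 0.37, adjusted permutation p = 1.55e-05), Ier2 (0.26, 0.20, p = 0.00662) and Fos (0.25, 0.24, p = 0.0036). Fosb correlated at 0.57 with Atf3 (rho = 0.53) and at 0.08 with Jun (rho = 0.08, adjusted permutation p = 0.295). The AP-1 partners Fos and Jun were at 0.30 (rho = 0.30, adjusted permutation p = 0.000337), but at 0.05 after quantile normalization within the batch (adjusted permutation p = 0.641) and 0.08 with the array SD regressed out. Those 2 settings left Fos with Egr1 at 0.80 and 0.79, Atf3 with Nr4a1 at 0.81 and 0.82, and Junb with Ier2 at 0.78 and 0.78.

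**Figure D2:**
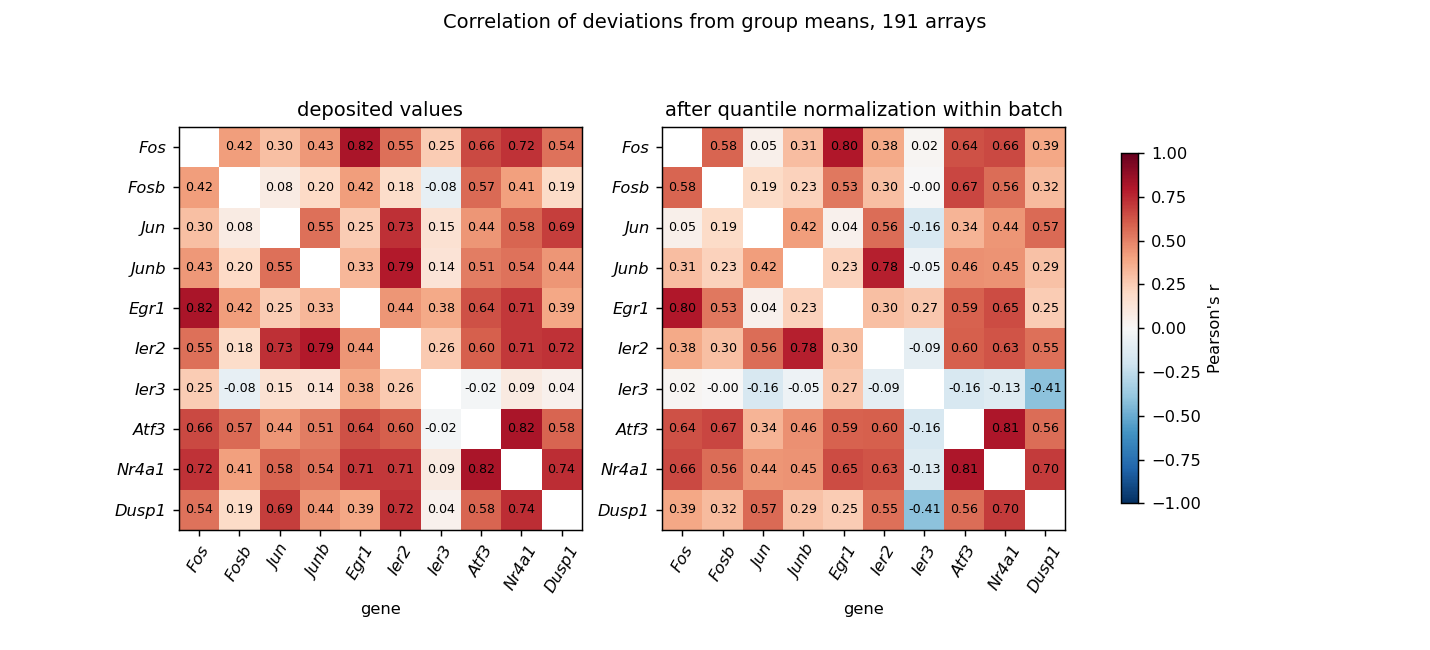
Pearson's r between the members' deviations from their group means over all arrays, for the deposited values on the left and after quantile normalization within the batch on the right. Fos with Egr1 (0.82 and 0.80) and Atf3 with Nr4a1 (0.82 and 0.81) stay high in both, while Ier3 with Dusp1 is at 0.04 on the left and -0.41 on the right.

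Measures of the whole array moved with the members, and their part in these correlations was not tested beyond those 2 settings. The SD of all values of an array correlated at an adjusted permutation p under 0.05 with 9 of the 10 members, all but Fosb (r = -0.16). The coefficient was 0.56 for Ier2 (rho = 0.55), 0.53 for Dusp1 (rho = 0.46) and 0.52 for Jun (rho = 0.53), beside a median of 0.41 over all genes tested. The median of all values of an array correlated negatively with 9 of the 10 at that threshold, all but Fosb (r = 0.04). It was at r = -0.61 with Ier2 (rho = -0.60) and -0.58 with Dusp1 (rho = -0.55). The 3' minus 5' difference of the beta-actin control probe sets, a measure of RNA integrity, correlated negatively with Jun (r = -0.44, rho = -0.42, adjusted permutation p = 5.14e-05), Junb (r = -0.35, rho = -0.36), Ier2 (r = -0.27, rho = -0.33) and Nr4a1 (r = -0.23, rho = -0.24). The RNA integrity number of the labels passed with none of the 10 by permutation, between -0.14 and 0.17 over 159 arrays. Marker lists of several cell types moved with the members, at an adjusted permutation p under 0.05. Endothelial and alveolar type 1 markers each did so with 9 members, alveolar type 2 markers with 7, macrophage markers with 6, smooth muscle markers with 5, club cell markers with 4, T and B cell markers with 3, neutrophil markers with 2 and cardiac muscle markers with 1, all positively, and skeletal muscle markers with 3 negatively. The mean of 5 endothelial marker genes was at r = 0.75 with Jun (rho = 0.71), between 0.64 and 0.82 in the 4 batches, at 0.56 with Dusp1 (rho = 0.54) and at 0.53 with Ier2 (rho = 0.54). The alveolar type 1 list was at 0.62 with Dusp1 (rho = 0.59), 0.59 with Ier2 (rho = 0.57), 0.50 with Ier3 (rho = 0.44) and 0.49 with Jun (rho = 0.49). T and B cell markers were at 0.57 with Ier3 (rho = 0.55), 0.45 with Egr1 (rho = 0.43) and 0.22 with Fos (rho = 0.20). The list of erythroid cells and blood, with 2 genes tested, and that of adipose tissue, with 3, passed with none of the 10 by permutation. The heat shock list ran with Dusp1 (r = 0.50, rho = 0.46) and Jun (0.44, 0.44) and opposite to Ier3 (r = -0.43, rho = -0.44), each at an adjusted permutation p of at most 9e-05. The list of glucocorticoid response genes was positive with Jun and Dusp1 (0.38 for both) and Ier2 (0.23) and negative with Ier3 (-0.34) and Egr1 (-0.30). These are 180 relations of members with array measures, adjusted together. The share of all genes tested that would pass with each list or measure is not given. The counts of members passing therefore do not show a link particular to the members.

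The genes whose deviations were most like the mean of the members', each standardised, were Zfp36 (r = 0.82 over all arrays), which encodes a protein that destabilises AU-rich mRNAs, Rcan1 (0.79), an inhibitor of calcineurin, Kcne4 (0.79), a potassium channel subunit, Sertad1 (0.78), Mpzl1 (0.78), Phlda1 (0.77), Cish (0.76), a suppressor of cytokine signalling, Misp3 (0.74), Slc25a25 (0.74) and Hdac3 (0.73). After quantile normalization 9 of them stayed among the 10 most alike, and Hdac3 was the 34th. Of 56 further early response genes listed, 52 were tested, and 5 of these stood among the 100 most alike, with a median r of 0.52 for the list and 0.23 for all genes. After quantile normalization 10 of them did, with medians of 0.32 for the list and 0.07 for all genes. These coefficients are descriptions without a test.

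Against this spread, exposure shifted few members. Of 340 comparisons of a member with controls limma called 4, or 1.18%, against 2.58% of 459816 comparisons over all genes tested. At an unadjusted p under 0.05 against every control set the share was 10% of the members' comparisons and 12.2% of all. Differences ran from -0.80 to 0.85, and the median SE of a difference was between 0.08 for Fosb and 0.26 for Nr4a1. Changes of about that size were not detectable with these arrays, and a call took a difference of several SE. The smallest called was -0.56 ± 0.12, for Junb in NPTH-0.5, while -0.80 ± 0.24, for Dusp1 in CMPH, was not called.

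**Figure D3:**
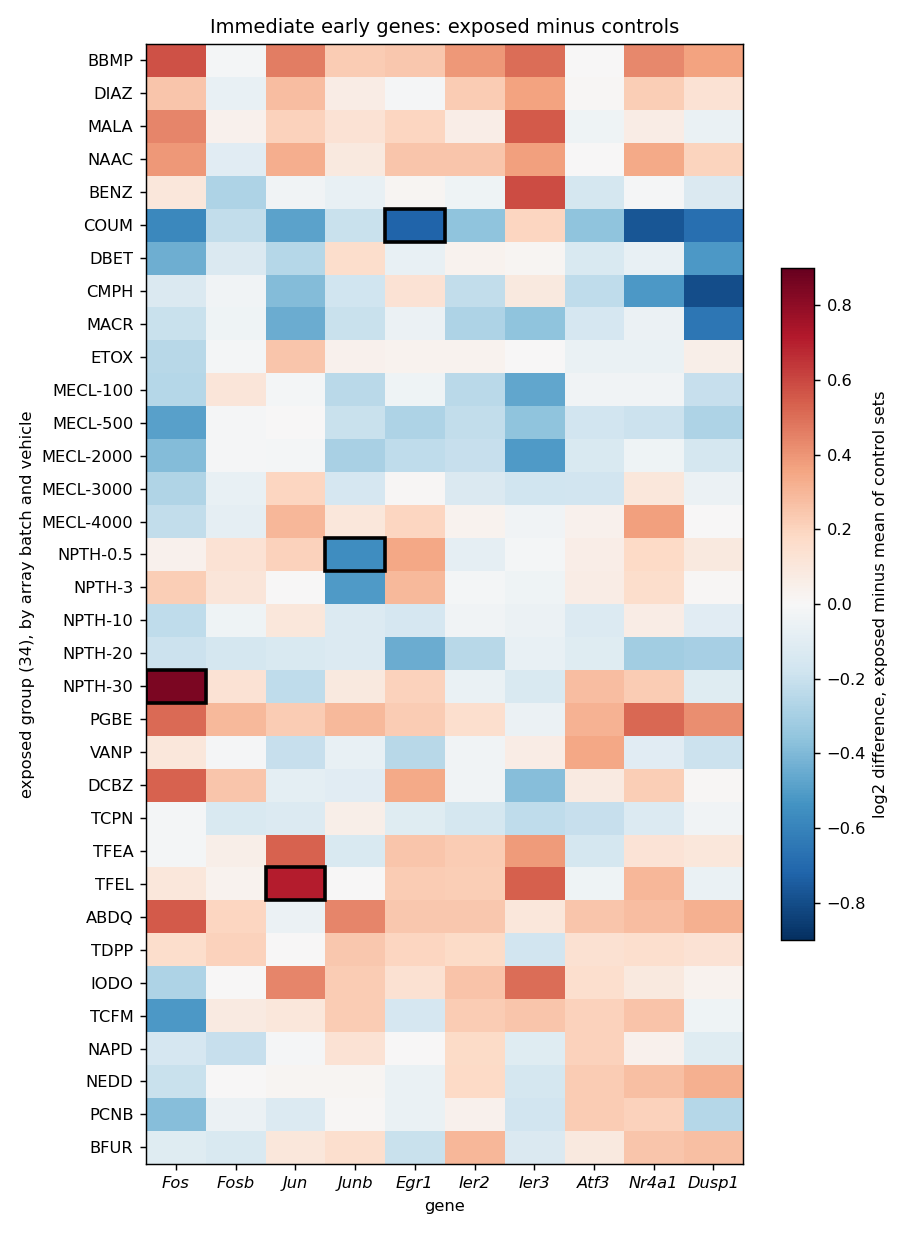
Log2 difference of each exposed group from the mean of its control sets (rows, 34 groups) for the 10 members (columns), red where the exposed group was higher and blue where it was lower. Black frames mark the 4 called cells, Egr1 in COUM, Junb in NPTH-0.5, Fos in NPTH-30 and Jun in TFEL.

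Fos, the AP-1 subunit that pairs with Jun proteins, rose in lungs of mice exposed to naphthalene at 30 ppm. It was at 3.38, 3.02, 2.58 and 2.93 in the exposed animals, against 2.34, 2.43, 2.11 and 1.90 in ACO3, 2.32, 2.09, 2.22, 1.93 and 1.88 in ACO4, and 2.22, 2.24, 2.10, 1.95 and 1.97 in ACO5. All 4 exposed animals lay above all 14 controls. The difference was 0.85 ± 0.20 (95% interval 0.45 to 1.25), a 1.80-fold change. Limma's adjusted p was 0.0482 against ACO3, 0.00963 against ACO4 and 0.0163 against ACO5. Fos was 1 of 10 members called in a comparison that called 2.05% of all genes. The call was lost without NPTH-30 replicate 1, 2 or 4 or without any 1 of the 4 ACO3 arrays (limma adjusted p 0.0525 to 0.181), while the difference stayed between 0.72 and 0.98. At 20 ppm Fos was at 1.84, 1.81, 2.32 and 1.80, a difference of -0.19 from the same sets. Of the 52 early response genes tested 1 was called beside it, Ptgs2, the inducible cyclooxygenase, at 0.89 ± 0.17 (limma adjusted p = 0.00312). Ptgs2 was also called at 20 ppm (0.85 ± 0.17, limma adjusted p = 0.00731), where Fos was not higher, and in TCPN (1.31 ± 0.18, 1.78e-05). In IODO it was called lower (-0.67 ± 0.21, limma adjusted p = 0.0169), and no member was called in any of these groups. The list of endothelial markers was lower by 0.40 in NPTH-30 animals. That of erythroid cells and blood, with 2 genes tested, was at -0.58, and the part of both lists in the result was not tested.

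Jun, the AP-1 subunit that pairs with Fos, rose in lungs of mice that inhaled tetrafluoroethylene. Its values were 3.89, 3.99, 3.84 and 4.15 in TFEL animals and 3.15, 3.59, 3.16 and 3.13 in ACO1 controls, and the groups did not overlap. The difference was 0.71 ± 0.19 (95% interval 0.34 to 1.09), 1.64-fold, with a limma adjusted p of 0.0103, in a comparison that called 7.13% of all genes, 1 of the 10 members among them. The second Jun probe set differed by 0.41 ± 0.14 (limma adjusted p = 0.0406). In TFEA animals, which share those controls, Jun was at 4.04, 4.41, 3.45 and 3.26, a difference of 0.53 ± 0.19 that was not called (limma adjusted p = 0.209), though it was after quantile normalization (0.54, 0.0285). TFEL minus TFEA was 0.18 (95% interval -0.20 to 0.55, limma adjusted p = 0.969), so the chemicals were not told apart, and a difference of up to 0.55 remains within the interval. The beta-actin 3' minus 5' difference was 0.19 to 0.26 in the TFEL arrays and 0.49 to 0.81 in the ACO1 arrays. With that measure as a covariate the difference of Jun was 0.37 and no longer called (limma adjusted p = 0.35), a setting chosen after the data were seen. RNA integrity numbers also did not overlap, at 9.3, 8.8 and 9.1 in the TFEL arrays that have one and 8.4, 7.6, 7.9 and 7.8 in ACO1. Their part in the result was not tested. Without ACO1 replicate 3 the limma adjusted p was 0.051. Endothelial markers were higher by 0.27 in TFEL animals, with ranges that overlap. Of 52 early response genes, Bhlhe40, a repressor of clock genes (0.48 ± 0.14), Gadd45b, a stress sensor (0.45 ± 0.14), and Ier5l (0.29 ± 0.09) rose, as did Elk3, an ETS factor that partners SRF (0.53 ± 0.16), 1 of 12 upstream factors tested (limma adjusted p 0.0195 to 0.0281). Bhlhe40 was also called higher in BBMP, MECL-3000, MECL-4000 and VANP, Ier5l in IODO and TCFM, and Elk3 in BBMP. No member was called in any of those groups.

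Junb, an AP-1 subunit that can oppose Jun, fell in mice exposed to the lowest concentration of naphthalene. It was at 0.59, 0.40, 0.41 and 0.45 in NPTH-0.5 animals, against 0.74 to 1.31 with a median of 1.04 in the 14 air controls, with no overlap. The difference was -0.56 ± 0.12 (95% interval -0.79 to -0.33), 1.48-fold lower (limma adjusted p at most 0.0316), in a comparison that called 0.37% of all genes and 1 of 10 members. At 3 ppm Junb was as low, at 0.50, 0.59, 0.41 and 0.55, again below all 14 controls. Its difference there was -0.51 ± 0.12 and was not called against every set (limma adjusted p = 0.103), but was against their mean (0.00313), by which 1.62% of all genes were called. The call at 0.5 ppm was lost without 9 of 18 arrays left out in turn, namely NPTH-0.5 replicate 2, 3 or 4, ACO3 replicate 2, ACO4 replicate 3 or 5 and ACO5 replicate 1, 2 or 5 (limma adjusted p 0.05 to 0.139), with differences between -0.60 and -0.54 in all 18. With the beta-actin measure as covariate it was -0.50 (limma adjusted p = 0.063). Of the early response genes Btg2, an antiproliferative factor, fell by 0.70 ± 0.15 in the same animals (limma adjusted p = 0.0267), the 1 of 52 called.

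Egr1 fell in mice given coumarin. It was at 0.94, 0.42, 0.50 and 0.23 in COUM animals, against 0.88, 1.04, 1.90 and 1.40 in CCO2 and 1.00, 1.44, 0.96 and 1.37 in CCO3. COUM replicate 1 overlapped the lowest controls and the other 3 lay below all 8. The difference was -0.72 ± 0.20 (95% interval -1.12 to -0.32), 1.65-fold lower (limma adjusted p at most 0.0462), in a comparison that called 5.69% of all genes and 1 of 10 members. The call was lost without 3 COUM arrays (replicates 2, 3 and 4), 3 CCO3 arrays (replicates 1, 2 and 4) or 2 CCO2 arrays (replicates 3 and 4), each left out alone (limma adjusted p 0.0507 to 0.23), with the difference between -0.86 and -0.62. With the arrays of the comparison alone the limma adjusted p was 0.303.

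Most other members were lower in the same coumarin animals without passing against both control sets. Nr4a1 was at 1.11, 0.92, 0.90 and 0.89 in COUM, against 1.02 to 2.56 with a median of 1.71 in the 8 controls, a difference of -0.77 ± 0.26 (limma adjusted p = 0.0953). Dusp1 was at 3.84, 3.90, 3.75 and 3.33 in COUM, against 3.53 to 5.16 with a median of 4.36 in controls (-0.68 ± 0.20, limma adjusted p = 0.0517). The second Jun probe set, fitted with every probe set on its own, fell by 0.55 ± 0.12 and was called (limma adjusted p = 0.00815), while the one that stands for Jun was at -0.48 (limma adjusted p = 0.0913). Differences were -0.58 for Fos, -0.36 for Ier2 and Atf3, -0.22 for Fosb and -0.20 for Junb, and Ier3 was at 0.19. The median of the 10 was -0.42, against -0.06 over all genes. Against the mean of both control sets 6 members were called lower, Egr1, Nr4a1, Dusp1, Jun, Ier2 and Fosb (limma adjusted p 0.00771 to 0.0468), a rule by which 18.1% of all genes were called. With the array SD as a covariate none was called, and Egr1 was at -0.57 (limma adjusted p = 0.0983). Against each control set, a rule that called 5.69% of all genes in COUM, 4 of the 52 early response genes fell and none rose. They were the AP-1 subunit gene Jund (-0.67 ± 0.10, limma adjusted p = 0.00033), the GTPase genes Rhob (-0.59 ± 0.14) and Gem (-0.38 ± 0.10) and the MAP kinase phosphatase gene Dusp5 (-0.28 ± 0.08). The heat shock list was lower by 0.98 in COUM animals, at 1.89 to 2.66 against 2.32 to 3.73 in controls, the smooth muscle list was at -0.50 and the endothelial list at -0.42, and their part in the result was not tested.

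**Figure D4:**
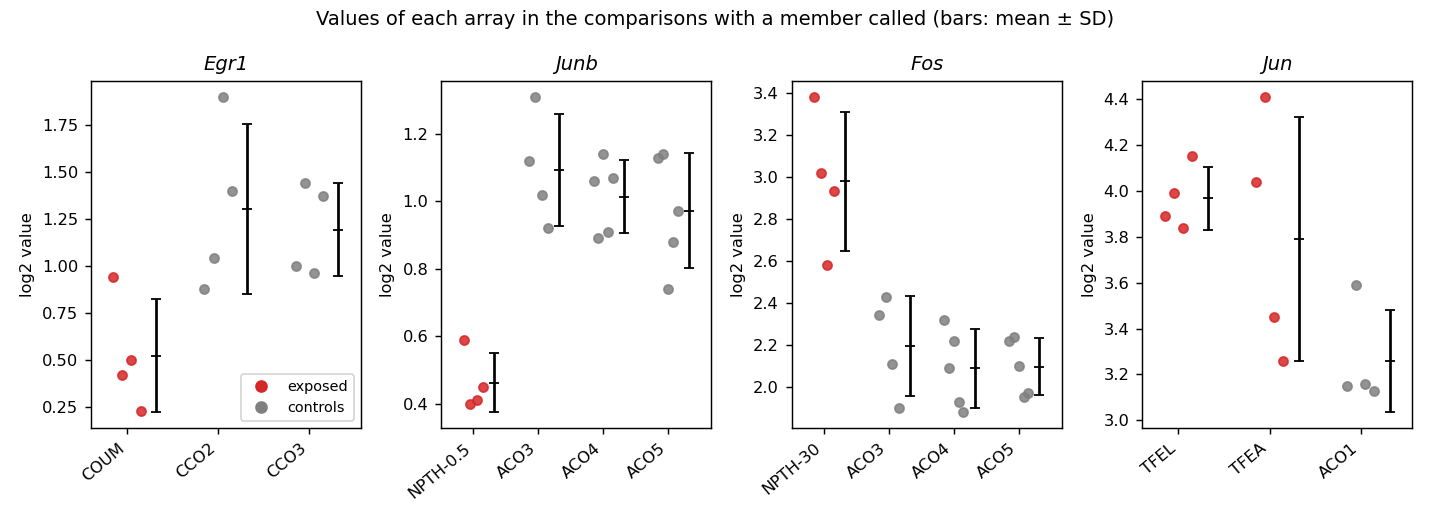
Log2 value of each array for the 4 called members, with exposed animals in red and controls in grey, and bars for the mean ± SD. NPTH-30 lies above all air controls for Fos, NPTH-0.5 below them for Junb and TFEL above ACO1 for Jun, while 1 COUM animal overlaps the controls for Egr1.

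In the other 30 groups limma called no member, with 24 of 300 comparisons at an unadjusted p under 0.05 (8%), against 12.1% of all genes' comparisons. The shares of all genes called set the background. In the groups that share ACO3 to ACO5 they were 0% for ETOX, 0.148% for MECL-100, 0% for MECL-500, 0.0148% for MECL-2000, 0.577% for MECL-3000, 0.503% for MECL-4000, 0.355% for NPTH-3, 0.555% for NPTH-10, 2.11% for NPTH-20, 0.673% for PGBE and 4.33% for VANP. With corn oil the shares were 0.0296% for BENZ, 2.67% for DBET, 1.43% for DCBZ, 9.37% for TCPN, 27.4% for IODO, 0.488% for TCFM and 1.86% for BFUR. With water they were 0% for CMPH and 5.24% for MACR. With chow they were 10.8% for BBMP, 0% for DIAZ, 1.71% for MALA, 0.0148% for NAAC, 0.917% for ABDQ, 0.00739% for TDPP, 1.09% for NAPD, 0.0887% for NEDD and 0.00739% for PCNB. TFEA, by inhalation, had 0.0961%. IODO, with the largest share of these, had 0 of 10 members, the nearest being Jun at 0.44 ± 0.19 (limma adjusted p = 0.0684).

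The called differences were at least 0.56 in size, and some uncalled ones were as large. Dusp1 was at 4.05, 4.03, 3.80 and 3.33 in CMPH animals, against 4.15, 4.45, 5.06 and 4.76 in WCO1 controls, without overlap, at -0.80 ± 0.24 (limma adjusted p = 0.605). Ier3 was higher by 0.59 ± 0.21 in BENZ (limma adjusted p = 0.763). Smaller uncalled differences were those of Nr4a1 in PGBE (0.52 ± 0.24, limma adjusted p = 0.383) and Junb in ABDQ (0.44 ± 0.14, 0.107). In 3 groups, MACR, MECL-2000 and NPTH-20, all 10 members had a difference below 0, and in none were all above it. The medians of the members there were -0.20, -0.18 and -0.17, and those over all genes were also below 0, at -0.04, -0.03 and -0.06. BBMP had the highest median of the members, 0.37, against 0.10 over all genes. Since the members move together between animals, such counts are not 10 separate observations. Over all 34 groups 1.87% of 1768 comparisons of early response genes were called, 21 higher and 12 lower, and 1.96% of 408 of upstream factors, 5 higher and 3 lower. The share over all genes tested was 2.58%, so neither list was called more often than genes in general.

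The joint F test over the 34 groups passed for 7 of 10 members, against 88.6% of all genes. Fosb (F = 3.03, limma adjusted p = 1.24e-05), Junb (2.94, 2.02e-05) and Fos (2.70, 7.81e-05) had the largest values, beside a median F of 2.25 over all genes. Jun (limma adjusted p = 0.00433), Dusp1 (0.0264), Egr1 (0.0275) and Atf3 (0.0456) also passed. Ier2 (0.0601), Ier3 (0.0628) and Nr4a1 (0.415) did not.

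Control sets that share a vehicle and batch gave the background without exposure. No member was called in any of the 5 pairs, as limma called 0% of all genes in ACO3 against ACO4, 0% in ACO3 against ACO5, 0% in ACO4 against ACO5, 0.0296% in CCO2 against CCO3 and 0% in CCO5 against CCO6. Fos in CCO2 minus CCO3 (0.69, limma adjusted p = 0.562) was the only 1 of the 50 at an unadjusted p under 0.05 (0.00703), and its size lies close to that of the called differences.

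Across the concentrations of naphthalene Junb followed the dose among exposed animals. Its means were 0.46 ± 0.09 at 0.5 ppm, 0.51 ± 0.08 at 3 ppm, 0.91 ± 0.08 at 10 ppm, 0.90 ± 0.14 at 20 ppm and 1.11 ± 0.10 at 30 ppm (SD, n = 4 each), and the controls' median of 1.04 lay near the value at 30 ppm. The fitted change from 0.5 to 30 ppm was 0.63 ± 0.08 over 20 arrays (limma adjusted p = 3.91e-06), and the animals at 0.5 and 3 ppm lay below all those at 10, 20 and 30 ppm. Jun fell with concentration by 0.38 ± 0.14 (limma adjusted p = 0.0307), with means of 3.18 ± 0.20, 2.97 ± 0.32, 3.07 ± 0.20, 2.83 ± 0.26 and 2.74 ± 0.29 that overlap between neighbouring concentrations. Fos, with a fitted change of 0.56 ± 0.27 (limma adjusted p = 0.0985), had means of 2.16, 2.34, 1.90, 1.94 and 2.98, highest at 30 ppm. Single arrays at lower concentrations were also high, at 3.10 (NPTH-3 replicate 2) and 2.62 (NPTH-0.5 replicate 4), against 2.58 to 3.38 at 30 ppm. Junb and Jun were 2 of 10 members called for a trend, against 40.8% of all genes. With the air controls added at 0 ppm Junb was at 0.21 (limma adjusted p = 0.175) and Jun at -0.26 (0.172), and Fos at 0.49 was called (0.0399), in a fit that called 29.8% of all genes. After quantile normalization Junb stayed called (0.72, limma adjusted p = 1.69e-06), Jun was not (-0.27, 0.0822) and Fos was (0.67, 0.0338). The share of all genes called in that fit is not given.

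Across methylene chloride 4 of 10 members had a trend over 21 arrays, against 42.2% of all genes. Jun (0.30 ± 0.09, limma adjusted p = 0.00948), Junb (0.26 ± 0.10, 0.0371) and Ier2 (0.23 ± 0.07, 0.0151) rose and Fosb fell (-0.17 ± 0.06, 0.0227) between 100 and 4000 ppm. Jun had means of 2.96 ± 0.21 (SD, n = 5) at 100 ppm and 2.97 ± 0.16, 2.95 ± 0.07, 3.16 ± 0.20 and 3.27 ± 0.15 (SD, n = 4 each) at 500 to 4000 ppm. None of the 4 was called with the air controls added at 0 ppm, where 5.35% of all genes were, or after quantile normalization. Fos was lower than the mean of the air sets at all 5 concentrations, by 0.22 to 0.49, with no call (limma adjusted p 0.237 to 0.999).

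**Figure D5:**
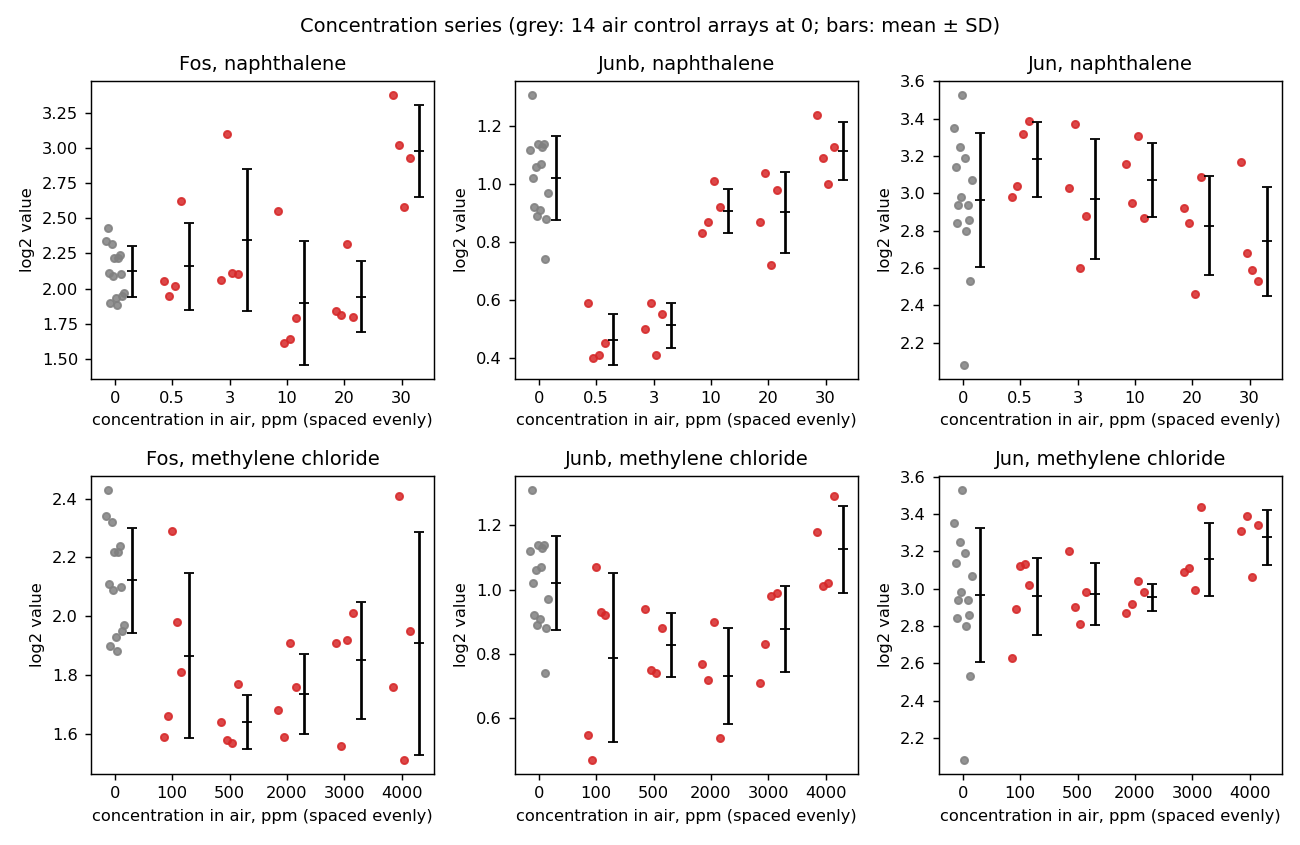
Log2 value of each array for Fos, Junb and Jun by concentration of naphthalene (upper row) and methylene chloride (lower row), with the 14 air controls in grey at 0 and bars for the mean ± SD. Junb in naphthalene is low at 0.5 and 3 ppm (means 0.46 and 0.51) and has a mean of 1.11 at 30 ppm. The mean of Fos is 2.98 at 30 ppm, while NPTH-3 replicate 2 stands at 3.10.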

How the data were processed

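Lung RNA was, per the labels, stored in RNAlater, extracted with Trizol, purified with RNeasy and hybridised with a biotin label to Affymetrix mouse expression arrays. The deposited values are taken as log2 and were made by the authors with a normalization not given in the sources used here. Array means lay between -0.00269 and 0.00334, which shows centring, while array SDs differ.

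Of 45101 probe sets 34958 had 1 symbol, 932 several and 9211 none, in a platform annotation updated through RefSeq. A gene stood for its probe set of the highest mean. All arrays entered 1 model of group means in limma 3.58.1 in R 4.3.3. No label names the chemical of a control set, and every set with the vehicle and batch of an exposed group was used. The 0 dose of ACO3 is labelled in mg/m3, the unit of VANP, while ACO4, ACO5 and the other air groups are in ppm. Trends used linear concentration in exposed arrays. Array SDs and marker lists were set against deviations from group means, with 100000 two-sided permutations of arrays within groups. Correlations and figures used Python 3.11.15, NumPy 2.4.6 and matplotlib 3.10.9.

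Named genes are all 10 members, up to 4 called early response or upstream genes of each comparison with a member called, and the 10 genes most like the members. Direct contrasts between exposed groups, covariates and other uncalled values were chosen after the values were seen. The members, gene lists and tests were chosen with earlier results of these data known. P-values measure the spread between arrays of single animals.

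On simulated data of 13524 genes with these spreads, 71% and 99% of 100 genes shifted by 0.5 and 1 were called in the TFEL layout, with 8 false calls, and 62% and 98% in the NPTH-30 layout, with 0. The shifted genes were drawn at random from all genes tested, whose median SD was 0.147, and genes varied independently. These shares therefore do not hold for members of larger spread, such as Nr4a1 at 0.431. The alternatives were quantile normalization within the batch, no filter, the mean of probe sets, each probe set alone, a comparison's own arrays, the mean of control sets, array weights (gene by gene), robust eBayes, 2 covariates, log10 concentration, controls at 0 ppm, each batch alone, and each array left out.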

Additional observations from a re-analysis of the deposited data

Results flagged for a closer look

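In groups of 4 or 5 arrays, 32 of 420 combinations of a member and a group (7.62%) held 1 array whose gap to the nearest other was large beside the group's range by Dixon's criterion, and chance marks about 1 in 20. There were 22 high and 10 low arrays, 24 in exposed groups and 8 in control sets, and members of 1 array are not independent. Fos was at 2.13 on CCO3 replicate 2, against 1.56 to 1.63 on the other arrays of that group and at 1.13 on DBET replicate 1, against 1.76 to 1.89 on the other arrays of that group. Fos was at 2.14 on NAAC replicate 2, against 2.41 to 2.45 on the other arrays of that group and at 2.62 on NPTH-0.5 replicate 4, against 1.95 to 2.05 on the other arrays of that group. Fos was at 2.32 on NPTH-20 replicate 3, against 1.80 to 1.84 on the other arrays of that group and at 3.10 on NPTH-3 replicate 2, against 2.06 to 2.11 on the other arrays of that group. Fosb was at -0.95 on ACO5 replicate 3, against -0.75 to -0.69 on the other arrays of that group and at -0.82 on MECL-500 replicate 2, against -0.78 to -0.77 on the other arrays of that group. Fosb was at -0.76 on NPTH-10 replicate 1, against -0.85 to -0.84 on the other arrays of that group. Jun was at 3.59 on ACO1 replicate 2, against 3.13 to 3.16 on the other arrays of that group. Junb was at 0.78 on CMPH replicate 4, against 0.99 to 1.02 on the other arrays of that group. Egr1 was at 1.97 on IODO replicate 2, against 0.90 to 1.06 on the other arrays of that group and at 1.12 on NAAC replicate 2, against 1.41 to 1.45 on the other arrays of that group. Egr1 was at 1.92 on NPTH-10 replicate 1, against 0.56 to 0.78 on the other arrays of that group. Ier2 was at 2.59 on ACO1 replicate 2, against 2.07 to 2.10 on the other arrays of that group and at 2.02 on CCO6 replicate 1, against 2.45 to 2.54 on the other arrays of that group. Ier2 was at 1.50 on CMPH replicate 4, against 1.97 to 2.03 on the other arrays of that group and at 2.23 on MECL-100 replicate 3, against 1.87 to 1.97 on the other arrays of that group. Ier2 was at 2.21 on MECL-2000 replicate 3, against 1.91 to 1.96 on the other arrays of that group. Ier3 was at 3.40 on CMPH replicate 4, against 4.00 to 4.04 on the other arrays of that group and at 4.16 on FCO2 replicate 4, against 3.86 to 3.91 on the other arrays of that group. Atf3 was at 0.57 on ACO4 replicate 1, against -0.05 to 0.10 on the other arrays of that group and at 0.41 on MALA replicate 2, against -0.08 to -0.01 on the other arrays of that group. Atf3 was at 0.80 on TDPP replicate 3, against 0.06 to 0.18 on the other arrays of that group and at 0.69 on TFEL replicate 4, against 0.13 to 0.20 on the other arrays of that group. Nr4a1 was at 1.11 on COUM replicate 1, against 0.89 to 0.92 on the other arrays of that group and at 1.95 on FCO1 replicate 2, against 1.17 to 1.28 on the other arrays of that group. Nr4a1 was at 2.71 on NPTH-10 replicate 1, against 1.16 to 1.42 on the other arrays of that group and at 3.04 on NPTH-3 replicate 2, against 1.23 to 1.48 on the other arrays of that group. Nr4a1 was at 3.12 on TFEL replicate 4, against 1.93 to 2.12 on the other arrays of that group. Dusp1 was at 4.99 on IODO replicate 2, against 4.12 to 4.22 on the other arrays of that group and at 3.80 on MECL-2000 replicate 1, against 4.23 to 4.25 on the other arrays of that group. 

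Direct contrasts between exposed groups of the same control sets were chosen after the values were seen, 27 in all. At a limma adjusted p under 0.05 Egr1 in COUM animals differed by -0.75 against BENZ and -0.65 against DBET. Junb in NPTH-0.5 animals differed at that threshold by -0.60 against ETOX, -0.66 against MECL-4000, -0.44 against NPTH-20, -0.65 against NPTH-30, -0.85 against PGBE and -0.49 against VANP. The other 6 of its 12 contrasts did not pass, at -0.33 against MECL-100 (limma adjusted p = 0.108), -0.36 against MECL-500 (0.0932), -0.27 against MECL-2000 (0.321), -0.41 against MECL-3000 (0.0765), -0.45 against NPTH-10 (0.0669) and -0.05 against NPTH-3 (1). Fos in NPTH-30 animals differed at that threshold by 1.10 against ETOX, 1.11 against MECL-100, 1.24 against MECL-2000, 1.13 against MECL-3000, 1.07 against MECL-4000, 1.34 against MECL-500, 0.81 against NPTH-0.5, 1.08 against NPTH-10 and 0.75 against VANP. The other 3 contrasts of Fos did not pass, at 1.04 against NPTH-20 (limma adjusted p = 0.0831), 0.64 against NPTH-3 (0.145) and 0.34 against PGBE (95% interval -0.15 to 0.84, 0.303). Jun in TFEL minus TFEA, at 0.18, did not pass either (limma adjusted p = 0.969).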

How the results depend on the processing

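The 4 called members kept their direction in each alternative and each fit with 1 array left out. Over all members and groups 4 comparisons (1.18%) were called with the deposited values, against 2.58% of all genes' comparisons. The number was 13 after quantile normalization (3.82%, all genes 4.54%), 4 without the filter (1.18%, all 2.35%) and 5 with the mean of probe sets (1.47%, all 3.02%). With each probe set alone it was 3 (0.882%, all probe sets 2.86%), the second Jun probe set not being counted. That probe set was itself called in COUM (-0.55) and TFEL (0.41). There were 11 calls with the comparison's own arrays (3.24%, all 1.49%), 13 against the mean of control sets (3.82%, all 6.32%) and 36 with array weights (10.6%, all 14.6%). Robust eBayes gave 4 (1.18%, all 2.57%), the beta-actin covariate 2 (0.588%, all 1.27%) and the array SD as covariate 11 (3.24%, all 4.65%). After quantile normalization all 4 called members remained called, with 2 calls each in COUM, MACR and TFEL and 1 each in ABDQ, DBET, IODO, NPTH-3 and TFEA. COUM had 2 calls without the filter and with the mean of probe sets, 0 with its own arrays alone, 6 against the mean of control sets, and 0 with array weights or the array SD as covariate. NPTH-30 had 0 without the filter (limma adjusted p = 0.0578) and with each probe set alone (0.0573). With own arrays alone there were 4 calls in BBMP, 3 in NAAC and 1 in NPTH-3. Against the mean of control sets DCBZ, MECL-100, NPTH-3 and PGBE had 1 each. Array weights gave 8 in MACR, 4 in BBMP, 3 each in NAAC and TCFM, 2 each in MALA, MECL-100 and MECL-500, and 1 each in CMPH, DIAZ, IODO, MECL-2000, NPTH-20, NPTH-3, PCNB, PGBE and TFEA. The beta-actin covariate gave 0 in NPTH-0.5 and TFEL. The array SD as covariate gave 2 in MACR and 1 each in ABDQ, DBET, IODO, NPTH-3, TCPN and TFEA. With 1 array left out COUM had 0 to 3 calls, and NPTH-0.5, NPTH-30 and TFEL 0 to 1. The trend for methylene chloride called 1 member on log10 concentration and 0 with controls added or after quantile normalization, and that for naphthalene called 1 with controls added. After quantile normalization the naphthalene trend called Fos and Junb but no longer Jun. Positively correlated pairs numbered 38, and 35 after quantile normalization, 29, 0, 38 and 27 in single batches, of which the 0 is the batch of 18 arrays, 38 without the 2 arrays farthest in Fos and 35 with the array SD removed. Negatively correlated pairs numbered 1 after quantile normalization, 2 with the array SD removed and 0 in the other settings. The cause of these changes was not tested, except that fewer arrays or tests enter some settings. No paired analysis was possible because replicate numbers were given in accession order and the labels pair no arrays across groups.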
